A study of Mus musculus with 6 samples.

Results

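The Myc, Max and Mxd network is a set of transcription factors that share a basic helix-loop-helix leucine zipper and pair with one another on DNA. Here it was taken as 10 genes listed by name, with earlier results of these arrays known: Myc, Mycn, Max, Mnt, Mga, Mxd1, Mxd3, Mxd4, Mxi1 and Mlx. All 10 were measured, of 19937 genes in all, each by 1 probe set that names a single gene.

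As background, the MYC and MYCN proteins bind DNA as pairs with MAX, at sites called E-boxes, and activate genes of growth, translation and metabolism. MXD1, MXD3, MXD4, MXI1 and MNT compete with them for MAX and bring the SIN3 histone deacetylase corepressors to the same sites. MGA, the largest member, also pairs with MAX and belongs to a Polycomb complex with PCGF6, E2F6 and L3MBTL2 that keeps germ cell genes silent in embryonic stem cells. MLX pairs with some MXD proteins, with MNT and with the glucose-sensing Mondo proteins. GSK3 phosphorylates the MYC protein, which marks it for destruction through the ubiquitin ligase subunit FBXW7. The arrays measured RNA, not protein.

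Total RNA was hybridised to 6 Affymetrix arrays, each of a single colour. The cells were 1 embryonic stem cell line of the mouse, V6.5, with a knock-in of a biotin and triple FLAG tag at Ctnnb1, the β-catenin gene, in cells that also carry the BirA biotin ligase. All cultures, both treatments alike, were kept in serum with LIF, the cytokine that sustains self-renewal, on feeder cells from DR4 mice. For 24 h, 3 samples received CHIR99021, a GSK3 inhibitor that stabilises β-catenin, at 3 µM, and 3 received XAV939, which blocks the tankyrases, so that Axin accumulates and β-catenin is degraded. The XAV939 dose reads 3 µM in the labels of the samples but 1 µM in their protocol. The comparison asked how transcripts differ between a stimulated and an inhibited Wnt pathway. No untreated array was analysed here, so a difference belongs to neither compound alone, and the labels do not say whether replicates were separate cultures, so that p-values measure the spread between these samples, which may be technical.

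Array medians lay between 5.67 and 5.71 on the log2 scale. Correlations across genes, which are not independent replicates, were 0.997 to 0.999 within a treatment and 0.994 to 0.995 between treatments. XAV939 replicate 1 stood apart from its group on the second principal component (17.4% of the variance), and CHIR99021 replicate 3 did so less. Each of the 10 embryonic stem cell markers was brighter than the median probe set. Levels are RMA log2 values. Signal differs between probe sets for reasons other than abundance, so a level is ranked against the median probe set only to describe how close it is to background, and no gene is called more abundant than another. Differences are CHIR99021 minus XAV939 on the log2 scale with the standard error (SE) of limma's fit. A call means limma's moderated test with Benjamini-Hochberg adjustment over all 19937 genes, at an adjusted p under 0.05.

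Of the 10 network genes, 3 were lower with CHIR99021 (Mycn, Myc and Mga), 0 were higher and 7 did not pass. Over all genes tested, 4.34% were called lower, 5.31% higher and 9.65% in either direction. The median difference of the 10 genes was -0.072, beside 0.0066 for all genes. Of the 10, 4 had CHIR99021 values that all lay below the XAV939 values, beside 11.0% of all genes in that direction and 25.1% in either.

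**Figure D1:**
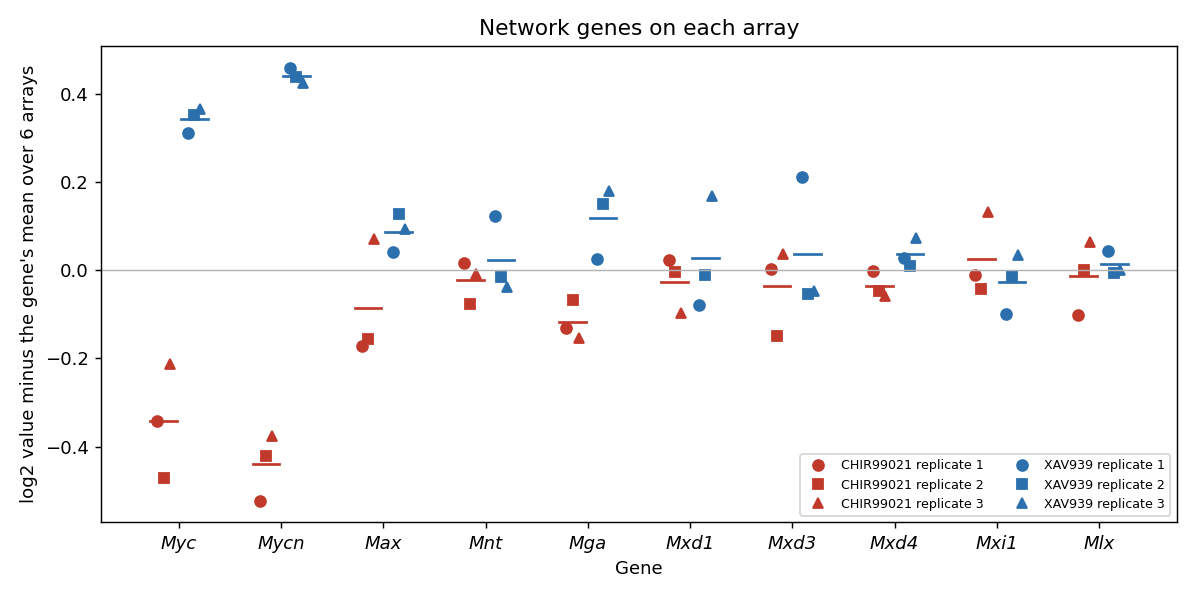
Each point is 1 array, plotted as the gene's log2 value minus its mean over the 6 arrays, for the 10 network genes, with CHIR99021 in red and XAV939 in blue and short lines at the group means (n = 3). Mycn and Myc are separated by treatment with wide gaps, Mga and Mxd4 with narrow ones, and the other 6 genes overlap.

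Mycn, the N-myc gene, prominent in embryonic and neural progenitor cells, had the largest difference of the network. Its log2 level was 9.67, 9.78 and 9.82 in CHIR99021 replicates 1 to 3, and 10.66, 10.63 and 10.62 in XAV939 replicates 1 to 3. Every CHIR99021 array was lower than every XAV939 array, and the gap between the groups was wider than the spread within either. The group means were 9.76 ± 0.08 and 10.64 ± 0.02 (SD, n = 3 each). Mycn thus fell by 0.88 on the log2 scale, or 1.84-fold (SE 0.06, limma adjusted p = 5.63e-06).

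Because Mycn moved most, the 250 bases before its annotated start in RefSeq are shown, at chr12:12941837-12942086 of GRCm38.p6, minus strand, written 5′ to 3′. Capitals mark the match to a TCF motif, the binding sequence of the DNA partners of β-catenin, searched as CTTTGAA or CTTTGAT on both strands.
Mycn: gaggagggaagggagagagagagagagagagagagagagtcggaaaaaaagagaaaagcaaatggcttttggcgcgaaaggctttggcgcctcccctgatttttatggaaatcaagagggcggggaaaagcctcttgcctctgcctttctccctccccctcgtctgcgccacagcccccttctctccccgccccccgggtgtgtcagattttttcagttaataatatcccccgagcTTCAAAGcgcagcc
The match lies on the opposite strand, with its first base 14 bases before the start. Of the 9 network genes in the promoter table, which are all but Myc, 1 held this motif in that window, and 7.76% of the 15613 tested genes in the table did. A match is a stretch of letters and was not tested as a binding site.

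Myc, the founding member and a classical target gene of β-catenin, was at 8.52, 8.39 and 8.65 in CHIR99021 replicates 1 to 3 and at 9.18, 9.22 and 9.23 in XAV939 replicates 1 to 3. The XAV939 arrays lay within a narrow band and the CHIR99021 arrays were spread more widely, all below it. Means were 8.52 ± 0.13 and 9.21 ± 0.03 (SD, n = 3 each). Myc fell by 0.68, or 1.61-fold (SE 0.07, limma adjusted p = 1.05e-04). Myc and Mycn kept their direction and their call in all 17 alternatives refitted over all genes, with adjusted p between 9.77e-06 and 0.00444 for Myc and between 5.67e-07 and 6.16e-04 for Mycn.

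The Myc response was set against that of each other member by the log ratio of their values within an array. The SE of a ratio difference is the ordinary one from the pooled spread of 3 and 3 arrays, not that of limma's fit. The ratio of Myc to Mycn was higher with CHIR99021 by 0.20 ± 0.08 (SE). With 1 array left out this difference was 0.15 to 0.27, and without both arrays that stand apart it was 0.14. For the other 8 members the ratio was lower with CHIR99021, by between 0.45 ± 0.10 (Mga) and 0.74 ± 0.04 (Mxi1), values that hold the fall of Myc itself. Each ratio is between different probe sets, so its change shows unequal differences of signal. None of these 9 ratios overlapped between treatments, but all 9 share the Myc values and are not independent. For Myc to Mycn the groups nearly met, at -1.381 (CHIR99021 replicate 2) and -1.389 (XAV939 replicate 3). A two-sided exact permutation test gave p = 0.1 for each of the 9 (adjusted p = 0.1), the smallest that 3 against 3 arrays allow, so the design cannot place these differences past a threshold of 0.05.

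Max, the obligate partner of the MYC proteins and of most of their antagonists, was at 8.59, 8.60 and 8.83 in CHIR99021 replicates 1 to 3, and at 8.80, 8.89 and 8.85 in XAV939 replicates 1 to 3. CHIR99021 replicate 3 lay among the XAV939 arrays, and the other CHIR99021 arrays lay below them. The difference was -0.17 ± 0.07 (95% interval -0.33 to -0.016) and did not pass (limma adjusted p = 0.190). It passed without CHIR99021 replicate 3 (-0.25, adjusted p = 0.0308) and without both arrays that stand apart (-0.27, adjusted p = 0.0128), and over the 17 alternatives its adjusted p ran from 0.0128 to 0.484.

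Mga was at 8.94, 9.0 and 8.91 in CHIR99021 replicates 1 to 3, and at 9.09, 9.22 and 9.25 in XAV939 replicates 1 to 3. The groups did not overlap, with a gap smaller than the range within the XAV939 group. Mga fell by 0.24, or 1.18-fold (SE 0.06, limma adjusted p = 0.0300). The call was lost without CHIR99021 replicate 1, 2 or 3 (adjusted p = 0.103, 0.0643 and 0.0964) and without XAV939 replicate 2 or 3 (0.106 and 0.117), where the difference stayed between -0.26 and -0.20. Without XAV939 replicate 1 it was -0.28 (adjusted p = 0.00898).

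**Figure D2:**
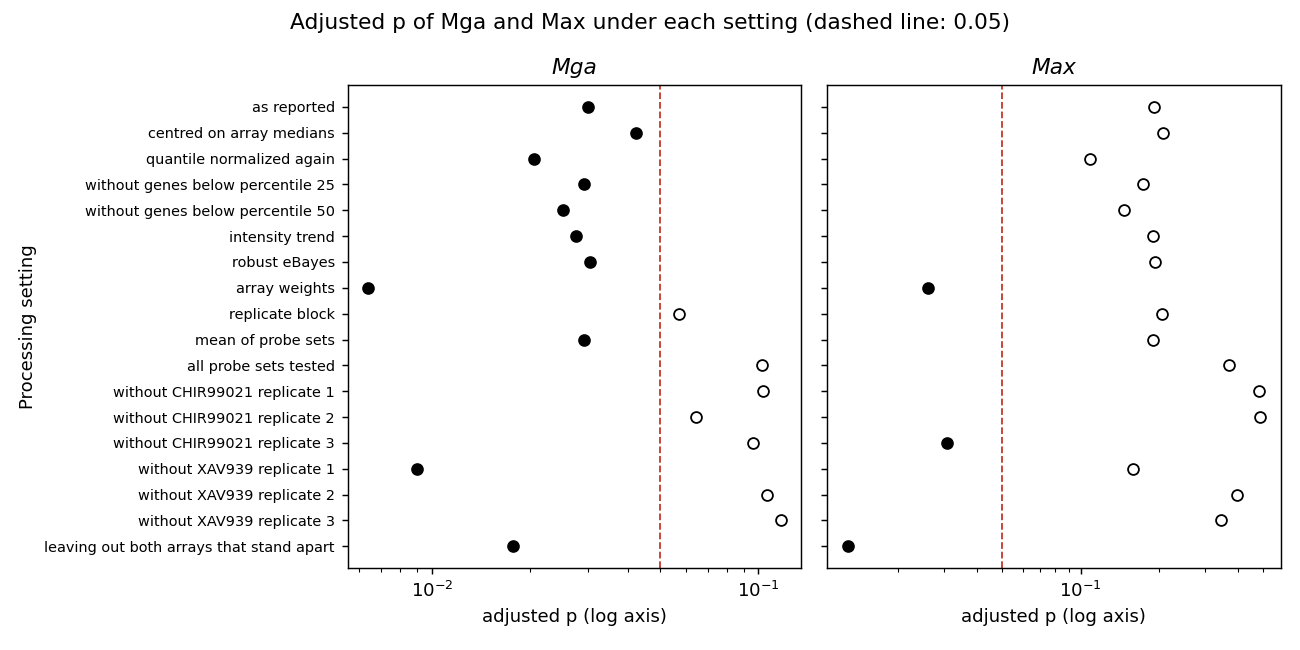
Adjusted p (horizontal log axis) of Mga and Max under the reported setting and each of 17 alternatives, with filled points past the threshold of 0.05 drawn as a dashed line. Mga was called in 10 of the 17 alternatives and Max in 3.

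The repressor genes of the MXD group did not pass. Mxd1, induced in many cells as they differentiate, was at 6.73, 6.70 and 6.61 with CHIR99021 and 6.63, 6.69 and 6.87 with XAV939. Its difference was -0.053 (95% interval -0.21 to 0.10). Mxd3, which is linked to proliferating cells, was at 6.46, 6.30 and 6.49 against 6.66, 6.40 and 6.41, a difference of -0.072 (95% interval -0.25 to 0.11). For both genes 1 XAV939 array was the highest of the 6, replicate 3 for Mxd1 and replicate 1 for Mxd3, and the other arrays were mixed.

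Mxd4 was at 6.29, 6.25 and 6.24 with CHIR99021 and at 6.32, 6.30 and 6.37 with XAV939. These values did not overlap, but the difference was small, at -0.072 (95% interval -0.18 to 0.040, limma adjusted p = 0.513). Mxi1, a repressor that opposes MYC in the same way, was at 7.15, 7.12 and 7.29 against 7.06, 7.15 and 7.19, and its difference of 0.052 (95% interval -0.089 to 0.19) was the one positive value of the network. Mxi1 was at -5.0e-04 without CHIR99021 replicate 3 and at -0.037 without both arrays that stand apart, so its sign rested on that array.

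Mnt, a broadly expressed antagonist of MYC, was at 6.58, 6.49 and 6.55 with CHIR99021 and 6.69, 6.55 and 6.53 with XAV939, a difference of -0.047 (95% interval -0.18 to 0.087). Mlx was at 8.36, 8.46 and 8.52 against 8.50, 8.45 and 8.46, a difference of -0.025 (95% interval -0.15 to 0.10). Both genes overlapped between treatments. The intervals of Mnt, Mxd1, Mxd3, Mxd4, Mxi1 and Mlx hold no fall as large as that of Myc. The lowest bound among them, -0.25 for Mxd3, is the one that goes past the fitted value of Mga.

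**Figure D3:**
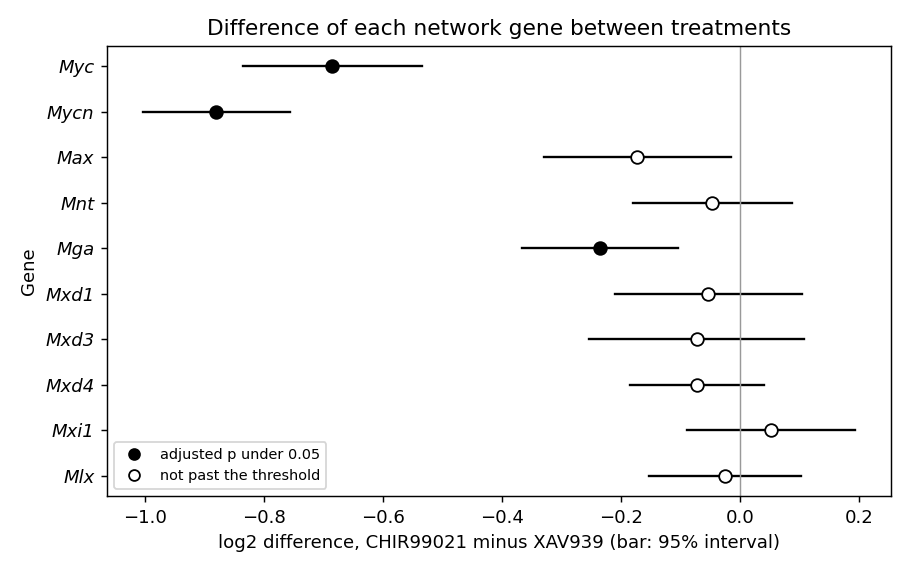
The log2 difference of each network gene (CHIR99021 minus XAV939) with its 95% interval from limma's fit over 3 and 3 arrays, filled where the adjusted p was under 0.05. Myc (-0.68) and Mycn (-0.88) lie far to the left of the other 8 genes, of which Mga alone is filled.

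The remaining Myc and Mondo genes did not pass in either direction. They were Mycl, the L-myc gene, Mycs, a Myc-like retrogene, Mlxip and Mlxipl, the Mondo partners of MLX, and 0 of the 4 had an unadjusted p under 0.05 in limma's test. The smallest p values were those of Mycs (-0.13 ± 0.09, adjusted p = 0.487) and Mlxip (-0.050 ± 0.075, adjusted p = 0.811).

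Among 14 measured cofactor genes of MYC, such as the histone acetyltransferase and chromatin remodelling subunits it recruits, 1 fell and 0 rose, which is near the 9.65% of all genes called in either direction. Bptf, a subunit of the NURF remodelling complex, was at 8.41, 8.60 and 8.38 with CHIR99021 and 8.65, 8.84 and 8.76 with XAV939, without overlap. It fell by 0.29 (limma adjusted p = 0.0328). Bptf lost the call when CHIR99021 replicate 1 (adjusted p = 0.127) or 3 (0.120) or XAV939 replicate 2 (0.122) or 3 (0.0993) was left out.

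Of 9 measured corepressor genes of the MXD and MNT proteins, 1 rose and 0 fell, again near the 9.65% of all genes. Rbbp7, a histone-binding subunit of SIN3 and other deacetylase complexes, was at 11.50, 11.54 and 11.43 with CHIR99021 and 11.16, 11.28 and 11.27 with XAV939. It rose by 0.25 ± 0.06 (limma adjusted p = 0.0192), a call lost without CHIR99021 replicate 1 (0.0725) or 2 (0.0982).

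Of 15 measured genes that modify the MYC protein or control its stability, 2 fell and 0 rose. The share of all genes called in either direction was 9.65%. Usp28, a deubiquitinase that removes ubiquitin from MYC, was at 8.43, 8.52 and 8.51 with CHIR99021 and 8.98, 9.04 and 8.98 with XAV939. It fell by 0.51, or 1.43-fold (SE 0.05, limma adjusted p = 1.34e-04), and passed in all 17 alternatives. Pim1, a kinase that phosphorylates MYC, fell by 0.28 (adjusted p = 0.0243), with adjusted p up to 0.113 over the alternatives. That largest value came without CHIR99021 replicate 2, and the call was also lost without CHIR99021 replicate 1 (0.101), XAV939 replicate 1 (0.0521) or XAV939 replicate 3 (0.0606). Fbxw7, whose product brings MYC to the proteasome, differed by 0.080 ± 0.056 (adjusted p = 0.513), and was singled out after its values were seen.

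Transcript targets of MYC were followed in a list of 41 measured genes that MYC proteins are known to activate, of nucleolus, translation, nucleotide synthesis and cell cycle. Of these, 2 fell, 1 rose and 38 did not pass, a share of calls no higher than the 9.65% of all genes. Srm, the spermidine synthase gene, was at 11.15, 11.15 and 11.37 with CHIR99021 and 11.55, 11.50 and 11.47 with XAV939, and it fell by 0.28 (limma adjusted p = 0.0259). Mthfd2, a mitochondrial folate enzyme, fell by 0.27 (adjusted p = 0.0255). Ccnd2, the cyclin D2 gene, rose by 0.27 ± 0.07 (adjusted p = 0.0411).

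The median difference of the 41 genes was -0.045, with 29 negative and 12 positive values. Over all genes the median was 0.0066, with 9369 negative and 10568 positive values. The mean log2 level of the list was 10.38 to 10.41 with CHIR99021 and 10.39 to 10.46 with XAV939. XAV939 replicate 1, at 10.39, lay among the CHIR99021 arrays. For 12 of the 41 the treatments were separated without overlap, 10 of them lower with CHIR99021 and 2 higher. Of all genes, 25.1% were separated in this way, 11.0% lower and 14.1% higher. With 1 array left out, 0 to 3 of the list were lower. Srm kept its call only when CHIR99021 replicate 3 was the array left out (adjusted p up to 0.122 otherwise). Mthfd2 kept it when CHIR99021 replicate 1 or XAV939 replicate 1 was left out (up to 0.122 otherwise). Ccnd2 lost its call without any 1 of the 3 CHIR99021 arrays or of XAV939 replicates 1 and 2.

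Genes that MYC is known to repress together with MIZ1 moved in both directions: of 14, 3 rose, 3 fell and 8 did not pass. Over all genes, 5.31% were called higher and 4.34% lower. Gadd45g, a stress-response gene, was at 7.35, 7.33 and 7.53 with CHIR99021 and at 6.75, 6.85 and 6.89 with XAV939, and it rose by 0.57 ± 0.07 (1.49-fold, limma adjusted p = 3.11e-04). Itga6, an integrin subunit, rose by 0.38 ± 0.06, and Clu, the clusterin gene, by 0.26 ± 0.07. Clu kept its call only when XAV939 replicate 1 was the array left out (adjusted p up to 0.144 otherwise). Gadd45a, a relative of Gadd45g, fell by 0.29. Klf6, a Kruppel-like transcription factor, fell by 0.43, and Cdkn1c, an imprinted inhibitor of cyclin-dependent kinases, fell by 0.42. The list median was 0.10.

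Of 12 genes that respond to the Mondo and MLX proteins, 2 fell, 0 rose and 10 did not pass, beside 9.65% of all genes called. Arrdc3, an arrestin-domain gene, was at 8.16, 8.14 and 8.17 with CHIR99021 and at 8.85, 9.12 and 9.10 with XAV939, and it fell by 0.86, or 1.82-fold (limma adjusted p = 3.34e-05). Txnip, the thioredoxin-interacting protein that restrains glucose uptake, was at 9.72, 9.74 and 9.84 against 10.21, 10.19 and 10.21 and fell by 0.43 (adjusted p = 4.21e-04). Both passed in all 17 alternatives. Without XAV939 replicate 1, 4 of the 12 were lower.

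**Figure D4:**
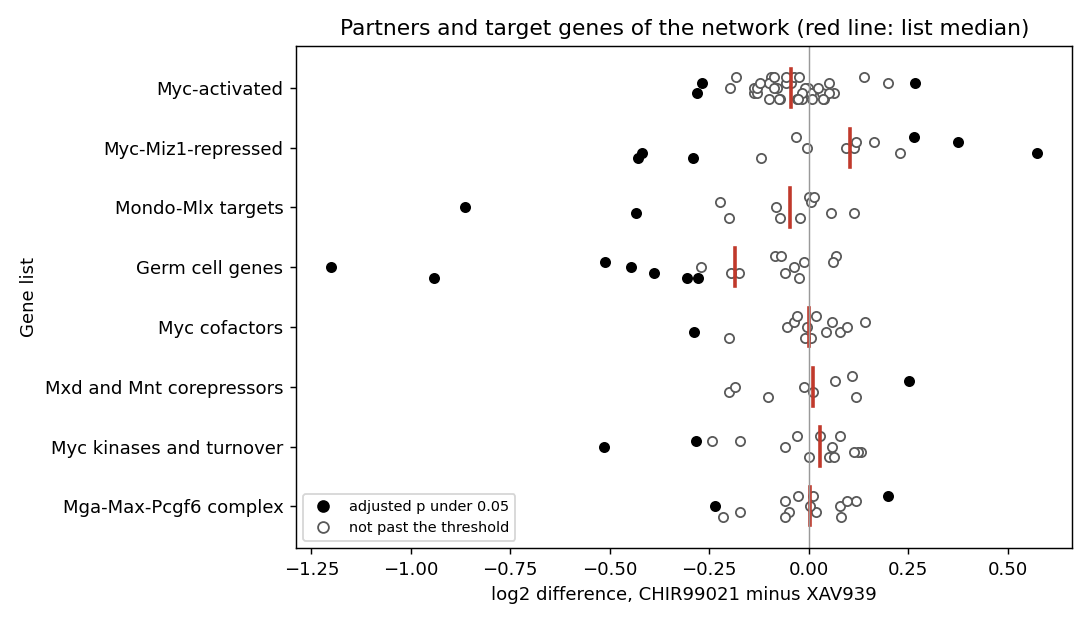
The log2 difference (CHIR99021 minus XAV939) of each measured gene in 8 lists of partners and target genes, filled where the adjusted p was under 0.05, with a red line at each list median; vertical scatter carries no value. The germ cell list has 7 filled points, all left of 0, and Zcwpw1 (-1.20) is the leftmost of the plot.

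In the Polycomb complex that holds MGA and MAX, 1 of 15 genes fell, which was Mga itself, 1 rose and 13 did not pass. Calls in either direction made up 9.65% of all genes. Yaf2, a subunit that links RING1 proteins to YY1, rose by 0.20 ± 0.06 (limma adjusted p = 0.0474). Yaf2 lost this call without any 1 of the 6 arrays (adjusted p up to 0.157), and also with arrays centred on their medians (0.0599) or quantile normalized again (0.0555). The list median was 0.0022.

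Of 18 germ cell and meiosis genes of the kind this complex silences, 7 were lower, 0 were higher and 11 did not pass, where 4.34% of all genes were lower. With 1 array left out, 5 to 8 were lower. Of the 18 values, 16 were negative, and the list median was -0.19. Some of these genes were known from earlier results of these arrays to be lower when the list was made, so the count is no independent evidence of a direction, and binding of each gene by the complex was not examined.

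Zcwpw1, a reader of histone marks in meiotic recombination, was at 6.17, 6.35 and 6.39 with CHIR99021 and at 7.33, 7.54 and 7.63 with XAV939. It fell by 1.20, or 2.30-fold (SE 0.09, limma adjusted p = 1.16e-05). Meioc, needed for meiotic prophase, was at 4.94, 5.01 and 5.11 against 5.67, 6.08 and 6.13 and fell by 0.94, or 1.92-fold (adjusted p = 2.96e-04). For both genes the treatments were separated by a gap wider than the range of the CHIR99021 arrays.

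Mael, a factor of transposon silencing, was at 5.14, 5.10 and 5.15 with CHIR99021 and at 5.59, 5.71 and 5.63 with XAV939 and fell by 0.51 (adjusted p = 1.59e-04). Ddx4, the germ cell RNA helicase, was at 7.65, 7.55 and 7.67 against 7.85, 8.08 and 8.11 and fell by 0.39 (adjusted p = 0.00763). Sycp3, a synaptonemal protein (fell by 0.45), Stra8, a gene of meiotic entry (fell by 0.30), and Tdrkh, a factor of piRNA processing (fell by 0.28), were the others. Of the 18 genes, 14 were dimmer than the median probe set, where array signal is close to background, and no detection call was made. With such genes left out of the test, 2 of the list were called, Zcwpw1 and Ddx4, and with all probe sets tested, 3.

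E-boxes were searched as CACGTG, which reads the same on both strands, in the 250 bases before each annotated start. They are shown because the same letters are read by MYC with MAX, by MNT, MXD and MLX pairs, and by MGA with MAX. Of the 9 network genes in the promoter table, Mnt, Mxd4 and Mlx held 1 each. The germ cell genes shown, Mael, Ddx4 and Sycp3, were picked because they were called and held an E-box. Germ cell genes that held an E-box but were not called are not shown. Each stretch below is 40 bases on the gene's own strand, with the E-box in capitals.
Mnt: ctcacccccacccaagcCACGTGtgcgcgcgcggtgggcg
Mxd4: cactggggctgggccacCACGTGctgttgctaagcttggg
Mlx: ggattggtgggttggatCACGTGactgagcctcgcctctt
Mael: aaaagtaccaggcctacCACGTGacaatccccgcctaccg
Ddx4: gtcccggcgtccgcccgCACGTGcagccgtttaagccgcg
Sycp3: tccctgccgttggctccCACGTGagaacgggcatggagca
These lie, on GRCm38.p6 by RefSeq, at chr11:74830784-74830823 (plus strand) for Mnt, chr5:34187907-34187946 (minus) for Mxd4 and chr11:101087233-101087272 (plus) for Mlx. Those of the germ cell genes lie at chr1:166238945-166238984 (minus) for Mael, chr13:112652317-112652356 (minus) for Ddx4 and chr10:88459506-88459545 (plus) for Sycp3. The E-box begins 123, 219 and 40 bases before the start in Mnt, Mxd4 and Mlx. It begins 223, 29 and 64 bases before it in Mael, Ddx4 and Sycp3, and Sycp3 holds another one 43 bases before its start.

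The 3 network genes with an E-box in this window were not called. Of the called genes, Mycn and Mga had none there, and Myc was not searched. Of 17 germ cell genes in the table, 10 held the motif, against 8.11% of the 15613 tested genes. These genes were listed as of the kind silenced by the complex of MGA and MAX, which read this motif. Their share is therefore not independent of how they were chosen. Among the germ cell genes the motif was held by 3 of the 7 that were lower and by 7 of the 10 others, a difference that was not tested. Over all tested genes in the table it was held by 9.85% of the 670 that were lower and by 8.03% of the rest. The motif is a description of these letters in this window.

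Genes whose pattern over the 6 arrays was most like that of Myc were chosen by the smallest root mean square difference of values centred on each gene's mean. They were Cthrc1, a secreted glycoprotein gene (0.046 log2 units), Itga3, an integrin subunit (0.053), and Dnmt3l, a cofactor of de novo DNA methylation (0.054). For Mycn they were Syt11, a synaptotagmin (0.027), Pipox, a peroxisomal oxidase (0.032), and Crmp1, a collapsin response mediator (0.036). Mycn was less like Myc than these, at 0.125. These likenesses are over 6 arrays of 2 treatments.

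Some markers of other cell types also differed between the treatments. Of 23 feeder fibroblast markers, 9 were higher with CHIR99021 and 1 was lower, beside 5.31% and 4.34% of all genes. Their mean log2 level was 6.50 to 6.55 with CHIR99021 and 6.27 to 6.37 with XAV939, and their summed linear signal was 4762 to 5107 and 3689 to 3865. Col1a1, the type I collagen chain, rose by 1.05 ± 0.05, Tagln by 0.67 ± 0.07, Pdgfrb by 0.59 ± 0.05 and Acta2 by 0.35 ± 0.05, while Mmp2 fell by 0.39. Of the 23 markers, 8 were dimmer than the median probe set. Among those 8 were Dcn, Lum and Postn, named after their values were seen, with mean log2 levels of 4.42, 4.05 and 4.27. In bulk RNA, fewer cells of a type and less RNA per cell cannot be told apart.

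Trophectoderm markers were higher in 6 of 10 cases (5.31% of all genes) and lower in 0 (4.34%). Their mean log2 levels were 7.66 to 7.73 and 6.99 to 7.10. Cdx2 rose by 1.63 ± 0.10, Krt18 by 1.19 ± 0.07, Eomes by 1.18 ± 0.08 and Krt7 by 0.88 ± 0.06. Of 9 neural markers, 4 were lower (4.34% of all genes) and 0 higher (5.31%), with mean levels of 6.08 to 6.27 and 6.43 to 6.53. Nes fell by 0.82, Neurod1 by 0.69, Tubb3 by 0.61 and Pax6 by 0.60. Of the 9 neural markers, 4 were dimmer than the median probe set, and with such genes left out 2 of the list were lower. Tubb3 was called in 16 of 17 alternatives (limma adjusted p up to 0.0846). Endoderm markers had 1 of 10 lower, Dab2 (fell by 0.35), and 0 higher, near the 9.65% of all genes called in either direction. Dab2 kept its call when replicate 3 of either treatment was left out (adjusted p up to 0.126 otherwise). Of the 10 endoderm markers, 6 were dimmer than the median probe set. With such genes left out, with a replicate block or with all probe sets tested, 0 of the list were lower.

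Of the 10 embryonic stem cell markers, 3 were higher and 4 lower, beside 5.31% and 4.34% of all genes. Esrrb rose by 0.60 ± 0.06, Nanog by 0.49 ± 0.05 and Zfp42 by 0.25 ± 0.06, while Utf1 fell by 0.67, Tdgf1 by 0.63, Fgf4 by 0.38 and Lin28a by 0.21. Zfp42 lost its call when CHIR99021 replicate 1 or 3 or XAV939 replicate 2 was left out (adjusted p up to 0.0782). Lin28a kept its call only when XAV939 replicate 1 was left out (up to 0.0842 otherwise). The part of any of these cell type markers in the differences of Myc, Mycn, Mga or the germ cell genes was not tested.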

How the data were processed

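From each sample 300 ng of RNA was labelled for the array, per the labels' protocols. The deposited values are log2 expression per probe set, which the authors computed by RMA, per the submitters' processing notes. The RMA version is not given in the sources used here, and neither is a build. RMA corrects background, normalises arrays by quantiles and summarises probes, and it compresses differences of weak genes. Of 34760 probe sets, 21640 named 1 gene in the platform annotation, 1321 named several and were left out, and 11799 had no name here. Each gene was its probe set with the highest mean, giving 19937 genes. Arrays were grouped by treatment label, and their number limits the precision.

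The contrast was fitted with limma 3.58.1 (lmFit, eBayes) in R 4.3.3 on all 6 arrays, without filter or block (4 residual and 6.15 prior degrees of freedom), and tested on simulated data. The log ratios were compared by exact permutation with SciPy 1.17.1. Plots used matplotlib 3.10.9. Members and gene lists were chosen with earlier results of these data known. The 15 lists held 218 different genes, of which 207 were measured, 7 of them in more than 1 list. The rest are not analysed here. Named were all 10 members. From each other list the text named up to 4 genes of smallest p past the threshold, or the 2 of smallest p where none passed, and all that passed in a direction where those were 5 or fewer. It also named 3 genes of like pattern each for Myc and Mycn. Genes outside this rule, Sycp3, Stra8 and Tdrkh among them, were chosen after their values were seen. Alternatives were other scalings, filters on low genes, variance models, a replicate block, other uses of probe sets, a threshold of 0.01 and leaving out each array. Leaving out both arrays that stand apart, and the use of all alternatives on the other lists, were chosen after seeing the data.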

Additional observations from a re-analysis of the deposited data

How the results depend on the processing

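Under 18 alternatives 2 to 4 network genes were lower and 0 higher. The count was 4 with array weights and without both arrays that stand apart, and 2 with all probe sets tested, at a threshold of 0.01, with a replicate block, and when CHIR99021 replicate 1, CHIR99021 replicate 2, XAV939 replicate 2 or XAV939 replicate 3 was dropped. Myc and Mycn were called in each. Differences of genes that never passed changed sign in these cases: Mlx 0.020 without CHIR99021 replicate 1, Mnt 0.0036, Mxd3 0.015 and Mlxip 0.0099 without XAV939 replicate 1, Mxd1 0.018 without XAV939 replicate 3, and Mxi1 -5.0e-04 without CHIR99021 replicate 3 and -0.037 without both arrays that stand apart. With 1 array left out the ranges were -0.063 to 0.020 for Mlx, -0.077 to 0.0036 for Mnt, -0.12 to 0.015 for Mxd3, -0.12 to 0.0099 for Mlxip, -0.11 to 0.018 for Mxd1 and -5.0e-04 to 0.086 for Mxi1.

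Whether the replicate numbers pair the samples is not known. Same-numbered arrays deviated from their group means with correlations of -0.096, 0.060 and -0.14 across genes. Differently numbered arrays ran from -0.13 (CHIR99021 replicate 2 with XAV939 replicate 1) to 0.18 (CHIR99021 replicate 3 with XAV939 replicate 1). Deviations from a mean of 3 arrays depend on one another, so these values cannot decide the question. With the number as a block 1578 genes were called, against 1924, and 2 network genes, Mga being lost (adjusted p = 0.0569). With all probe sets tested 1044 of the genes were called, and Mga was at 0.102. Array weights gave 2857 genes and called Max (0.0260). Without CHIR99021 replicate 2, 1254 genes were called, 528 of them lower, and without CHIR99021 replicate 1 the lower genes numbered 573. The germ cell list had 2 lower genes when the dimmer 50% of probe sets were dropped, by the filter's own construction, 3 with all probe sets tested and 4 at a threshold of 0.01. The list of MYC-activated genes had 0 lower with a replicate block, with all probe sets tested and at a threshold of 0.01, and 4 with array weights, and Mondo and MLX genes had 4 lower with array weights or repeated quantile normalization. The causes of these changes were not tested. Signal close to background limits what can be said of the germ cell genes.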

Other observations

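On XAV939 replicate 1, the array that stood apart from its group, several genes of the network and its relatives had their highest value of the 6 arrays. Mycs, the Myc-like retrogene, was at 6.0 on it and at 5.62 to 5.67 on the other 5. Mxd3 was at 6.66 against 6.30 to 6.49, Mnt at 6.69 against 6.49 to 6.58, and Mlxip at 7.05 against 6.80 to 6.99. Mycn was also highest there, at 10.66, but by less, with 10.63 and 10.62 on the other XAV939 arrays. Myc, Max, Mga, Mxd1 and Mxi1 were at the lowest value of the XAV939 group on it. For Mxi1, at 7.06, that was the lowest of the 6 arrays. These genes were picked after their values were seen.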
